A study of Mus musculus with 4 samples.

Results

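Prostaglandins are short-range lipid signals, and the data show how the genes that make and sense them stood in cultured mesenchymal cells of the mouse whisker follicle. The gene group comprised 10 genes: the cyclooxygenases Ptgs1 and Ptgs2, the synthases Ptges, Ptgis and Ptgds, and the receptors Ptger1, Ptger2, Ptger3, Ptger4 and Ptgfr. They were chosen by name from the 51826 genes of the count table, and each name matched 1 gene. RNA was measured in dermal papilla cells (DPCs), taken from the hair bulb, and in dermal sheath cells (DSCs), taken from the connective sheath around the follicle. The follicles were those of whiskers (vibrissae). The donors were C57BL/6J mice that carried an EGFP transgene, at an age of 5 to 6 weeks, and the labels give the genotype of all samples as WT. The low-passage cells were at passage 3 and the high-passage cells at passage 9, and all were grown in DMEM with fetal bovine serum. The study grafted such cells into skin and asked how passage bears on their settling in follicles. One RNA-seq library was made for each of the 4 combinations of cell type and passage, without replicates. How many animals or cultures each library held is not given in the sources used here.

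Total counts lay between 34981284 and 47604059 per library, so the precision of counting was close to equal. The labelled cell types were checked against marker lists. The smooth muscle actin gene Acta2, which marks the sheath, had 262118 and 67135 counts in low- and high-passage DPCs and 217199 and 197315 in DSCs. Summed CPM of 5 sheath markers was 9238 and 2565 in DPCs and 7662 and 6173 in DSCs, so high-passage DPCs stood lowest. Sox2, listed for both cell types, had 1677 and 1491 counts in low- and high-passage DPCs against 269 and 178 in DSCs. The papilla markers Alpl, Lepr and Corin had at most 23 counts in any library, and Lef1 had 508 counts in low-passage DPCs but 2 in high-passage DPCs. Of the other papilla markers, Vcan had 2913 to 5272 counts, and Ncam1 had 3642 and 1673 in DPCs against 11755 and 15584 in DSCs. The papilla markers thus did not point one way, and the groups are named here by their labels. Of 5 keratinocyte, 5 melanocyte and 5 mast cell markers, 4 of each list were at 0 in every library. Summed CPM of 4 endothelial markers was at most 2.64, and that of 5 Schwann cell markers was 11.2 and 3.65 in low- and high-passage DPCs and 28.0 and 5.09 in DSCs.

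Cyclooxygenases oxidise arachidonic acid, released from membranes by phospholipases, to the unstable intermediate PGH2. Terminal synthases then turn PGH2 into PGE2 (Ptges), prostacyclin (Ptgis), PGD2 (Ptgds) or PGF2α, and each product acts on its own G protein-coupled receptors. Ptgs1 encodes COX1, which most tissues make at a steady level, and Ptgs2 encodes COX2, which serum, cytokines and wounding induce. In the follicle, PGE2 and PGF2α are known for favouring hair growth, and PGD2 for opposing it.

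The enzymes of PGH2 and PGE2 synthesis were abundant and the receptors scarce. By FPKM, which corrects for transcript length and so allows genes to be set side by side, Ptgs1 and Ptgs2 were the leading members in all 4 libraries. Each stood among the top 14.7% of detected genes, at 21.5 to 132 FPKM. Ptges followed in 3 libraries, at 9.31 to 14.1 FPKM. In low-passage DSCs Ptgis, at 13.9 FPKM, stood above Ptges, at 6.06 FPKM. No receptor exceeded 4.26 FPKM in any library. Ptger2 and Ptgds lay at 0 to 0.129 and at 0 to 0.905 FPKM. The plot of levels by library shows this gap between enzymes and receptors, and shows also how far apart the libraries lay for single genes.

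**Figure D1:**
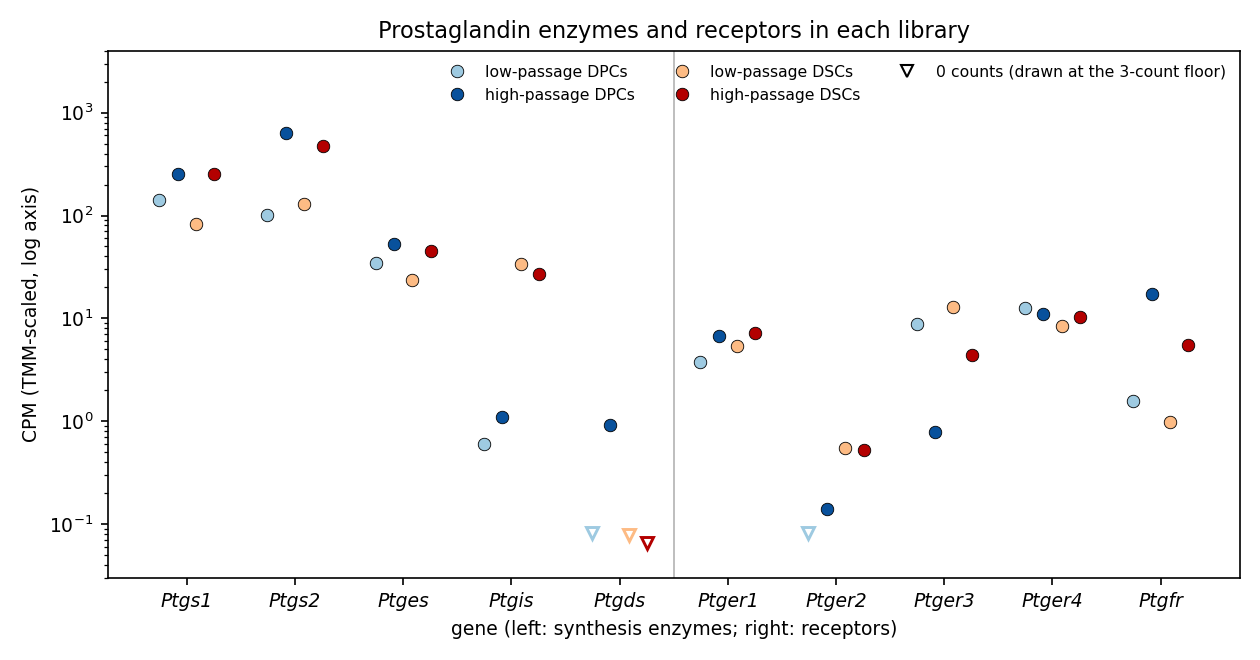
Level of each of the 10 genes in each of the 4 libraries, as CPM (counts scaled to library size) after TMM scaling, on a log axis. Each point is 1 library and open triangles mark a count of 0, drawn at the 3 counts that a 0 allows. Ptgs1 and Ptgs2 lie highest, Ptgis separates the cell types, and Ptgfr and Ptger3 separate the passages in opposite directions.

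The question put to each gene was whether it differed between passages within a cell type, and between the cell types at one passage. A gene was called different at a 4-fold change or more, a log2 difference of at least 2. This rule is one of size, since a single library per group gives no replicate error. The bracketed 95% intervals cover counting error only and treat every count as a separate molecule. They compare libraries rather than conditions, 2 for a single difference and all 4 for a difference between passage changes. In such bulk samples, fewer cells that express a gene and less of its RNA per cell cannot be told apart. The 4 comparisons share libraries in pairs, so they are not independent of each other.

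Both cyclooxygenase genes were higher at passage 9 in both cell types, Ptgs2 by the larger factor in DPCs. Ptgs2 had 3755 counts in DPCs at passage 3 and 22931 at passage 9, and 4879 and 21720 in DSCs at those passages. The 2 high-passage libraries were thus several times above the 2 low-passage ones, and within a passage the cell types lay close together. The log2 change with passage was 2.65 in DPCs (2.60 to 2.70), a 6.26-fold difference that was called. In DSCs it was 1.89 (1.84 to 1.93), or 3.70-fold, just under the threshold. The difference between those changes was 0.76 on the log2 scale (0.69 to 0.82), larger than counting error, and was not tested against replicates.

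Ptgs1 had 5223 counts in DPCs at passage 3 and 9045 at passage 9, and 3138 and 11616 in DSCs at those passages. Its order among the libraries matched that of passage, with the high-passage libraries on top, but here DSCs changed more. The log2 change was 0.83 in DPCs (0.78 to 0.88) and 1.62 in DSCs (1.57 to 1.68), and neither was called. Low-passage DPCs exceeded low-passage DSCs 1.71-fold. At passage 9 the difference between the cell types was -0.02 on the log2 scale (-0.06 to 0.02), within counting error. That value turned to 0.08 when libraries were scaled by total counts alone and to 0.13 in the deposited FPKM.

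Taken by their sum, the cyclooxygenases were higher at passage 9 in both cell types, and the share of Ptgs2 differed most in DPCs. Summed FPKM of Ptgs1 and Ptgs2 was 72.9 in low-passage and 225 in high-passage DPCs, and 55.0 in low-passage and 176 in high-passage DSCs. Ptgs2 made up 29.5% of that sum in low-passage DPCs and 58.8% in high-passage DPCs. In DSCs its share was 46.2% at passage 3 and 51.9% at passage 9. These shares come from values scaled by the authors and carry no interval.

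The Ptgs2 gene lies at chr1:150100031-150108227 on the plus strand of GRCm38 and Ptgs1 at chr2:36230426-36252272 on the plus strand. The 250 bases before each RefSeq start (GRCm38.p6, chr1:150099781-150100030 and chr2:36230176-36230425) are shown because these isozymes catalyse the same reaction but changed by different factors here. A further stretch, chr1:150100035-150100064, covers bases 5 to 34 after the start of Ptgs2. Capitals mark matches on either strand to the Sp1 motif GGGCGG, the C/EBP palindrome TTGCGCAA, the AP-1 motif TGANTCA, the cAMP response element (CRE) core TGACG and the E-box CACGTG.
Ptgs2 upstream: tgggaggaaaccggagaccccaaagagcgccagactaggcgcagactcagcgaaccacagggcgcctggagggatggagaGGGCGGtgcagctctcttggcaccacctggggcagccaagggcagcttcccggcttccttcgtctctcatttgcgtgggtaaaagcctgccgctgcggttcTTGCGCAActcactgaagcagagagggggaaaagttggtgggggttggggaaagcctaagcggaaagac
Ptgs2 after the start: tcaccactaCGTCACGTGgagtccgcttta
Ptgs1 upstream: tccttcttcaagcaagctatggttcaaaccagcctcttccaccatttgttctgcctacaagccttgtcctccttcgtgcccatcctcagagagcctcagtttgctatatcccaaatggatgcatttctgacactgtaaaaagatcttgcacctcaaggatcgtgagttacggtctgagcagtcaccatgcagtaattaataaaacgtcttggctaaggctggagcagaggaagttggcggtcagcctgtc

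Ptgs2 holds the C/EBP palindrome with its first base at -69 and an Sp1 motif at -170. After the start, a CRE core begins at base 14 and an E-box at base 17, and these overlap by 2 bases. The palindrome occurs in 0.184% of the 32544 distinct RefSeq windows of 300 bases, the E-box in 7.17%, the CRE core in 20.9%, AP-1 in 7.79% and Sp1 in 35.9%. The Ptgs1 window holds none of these letters. Of the 8 members with a promoter entry, Ptgs2 alone holds the palindrome, the E-box and the CRE core, while 5 hold Sp1 (Ptgs2, Ptges, Ptger3, Ptger4 and Ptgfr). A TATAAA box, found in 13.6% of windows, occurs in none of the 8. These are matches of letters, and binding was not measured. Positions are counted from the RefSeq start, and where transcription started in these cells was not measured.

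An antisense transcript, Ptgs2os, begins 68 bases upstream of Ptgs2 on the other strand. It had 33 and 83 counts in low- and high-passage DPCs and 35 and 147 in DSCs, and its log2 changes with passage were 1.32 and 1.75. A further antisense gene named for Ptgs2, Ptgs2os2, had 120 and 35 counts in DPCs and 35 and 108 in DSCs, with log2 changes of -1.69 and 1.31. The counts of both were low beside those of Ptgs2, and the annotation places no other gene over the exons of Ptgs2.

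The 3 terminal synthases followed different patterns. Ptges encodes the inducible microsomal PGE2 synthase that works with COX2. It had 1280 counts in DPCs at passage 3 and 1897 at passage 9, and 895 and 2071 in DSCs at those passages. It was higher at passage 9 in both cell types, by 0.60 (0.50 to 0.71) and 0.94 (0.83 to 1.06) on the log2 scale, and was not called. These changes were smaller than those of Ptgs2 in the same libraries.

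Ptgis, the prostacyclin synthase, separated DSCs from DPCs. It had 22 counts in DPCs at passage 3 and 39 at passage 9, and 1271 and 1224 in DSCs at those passages. Both DSC libraries stood far above both DPC libraries. DPCs were 51.7-fold lower at passage 3, a log2 difference of -5.69 (-6.49 to -5.20), and 23.6-fold lower at passage 9, at -4.56 (-5.13 to -4.17). Both differences were called. With the deposited FPKM the log2 differences were -4.87 and -4.28, also past the threshold. Passage moved it little, by 0.81 in DPCs (0.07 to 1.69) and -0.32 in DSCs (-0.43 to -0.21). An antisense gene overlaps 6.08% of its exonic bases. Ptgis stood at 2.30 times the FPKM of Ptges in low-passage DSCs and at 0.937 times in high-passage DSCs, whereas in DPCs Ptges exceeded Ptgis 24.6-fold and 30.1-fold.

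Ptgds, the lipocalin-type PGD2 synthase, was detected in 1 library only. It had 33 counts in high-passage DPCs and 0 in the other three, which allow up to 3 counts each. High-passage DPCs were at least 11.3-fold above low-passage DPCs and at least 14.0-fold above high-passage DSCs. If both mates of each read pair were counted, as an excess of even counts leaves possible, these bounds become 5.64-fold and 6.98-fold. The gene's mean over the 4 libraries was under 10 counts, so it was not among the genes tested.

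Among the receptors, Ptgfr was higher and Ptger3 lower at passage 9 in both cell types. Ptgfr encodes FP, the PGF2α receptor. It had 58 counts in DPCs at passage 3 and 615 at passage 9, and 37 and 249 in DSCs at those passages. Both high-passage libraries lay above both low-passage libraries, and DPCs lay above DSCs at each passage. The log2 change was 3.40 in DPCs (3.05 to 3.86), or 10.6-fold, and 2.43 in DSCs (1.98 to 3.02), or 5.37-fold. Ptgfr was the only member called in both cell types. With the deposited FPKM the change was 2.79 in DPCs and 1.49 in DSCs, so that the DSC call was lost. The reason the units differ was not tested. At passage 9 DPCs exceeded DSCs by 1.64 on the log2 scale (1.43 to 1.87), which was not called.

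Ptger3 encodes EP3, a PGE2 receptor that lowers cAMP. It had 322 counts in DPCs at passage 3 and 28 at passage 9, and 492 and 201 in DSCs at those passages. High-passage DPCs stood apart below the other libraries. The log2 change was -3.40 in DPCs (-4.10 to -2.93), a called 10.6-fold difference, and -1.55 in DSCs (-1.80 to -1.32). DPCs were 5.37-fold below DSCs at passage 9 (log2 -2.42, -3.12 to -1.92), also called, against 1.48-fold at passage 3. The change in DPCs differed from that in DSCs by -1.86 (-2.46 to -1.25), the largest gap between the cell types among the 8 members whose counts allowed an interval.

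Ptger4 encodes EP4, which raises cAMP. It had 461, 396, 321 and 475 counts in low- and high-passage DPCs and low- and high-passage DSCs. No comparison of Ptger4 exceeded 0.56 on the log2 scale. Its changes with passage had opposite signs, -0.18 in DPCs (-0.38 to 0.01) and 0.30 in DSCs (0.09 to 0.51), and the first lay within counting error. Genes on the opposite strand overlap 16.5% of its exonic bases.

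Ptger2, which encodes the other cAMP-raising receptor, EP2, was close to the detection limit. It had 0 counts in DPCs at passage 3 and 5 at passage 9, and 21 and 24 in DSCs at those passages. Low-passage DPCs were at least 6.79-fold below low-passage DSCs, and this difference was called, although it was lost with a prior count of 10, with FPKM and with a higher count filter. Should each read pair have given 2 counts, the bound is 3.40-fold, under the threshold. The gene passed the filter through its DSC counts. At passage 9 the log2 difference was -1.60 (-3.66 to -0.50). The 5 counts of high-passage DPCs against 0 did not exceed counting error.

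Ptger1, which encodes the calcium-linked receptor EP1, had 140, 244, 205 and 326 counts in the same order. Both high-passage libraries lay above both low-passage ones, with log2 changes of 0.83 in DPCs (0.53 to 1.15) and 0.40 in DSCs (0.15 to 0.66). The Ptger1 counts are uncertain, because the use of strand in counting is not given in the sources used here.

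The receptor mixture differed between passages, while its sum varied less. Summed FPKM of the 5 receptors was 8.14 in DPCs at passage 3, 7.70 at passage 9, and 8.18 and 6.99 in DSCs at those passages. Ptger3 accounted for 38.0% of the sum in low-passage DPCs and 2.90% in high-passage DPCs, and for 52.1% and 19.7% in DSCs. Ptgfr accounted for 3.24% and 31.5% in DPCs and for 2.37% and 10.4% in DSCs. Ptger4 held 42.7% and 39.5% in DPCs and 27.1% and 38.1% in DSCs. Ptger1 held 16.0% and 25.8% in DPCs and 16.8% and 30.1% in DSCs. In DSCs the shares of Ptger1 and Ptger4 thus rose by more points than that of Ptgfr. The plot of receptor shares sets these side by side, with the reservation about Ptger1 above.

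**Figure D2:**
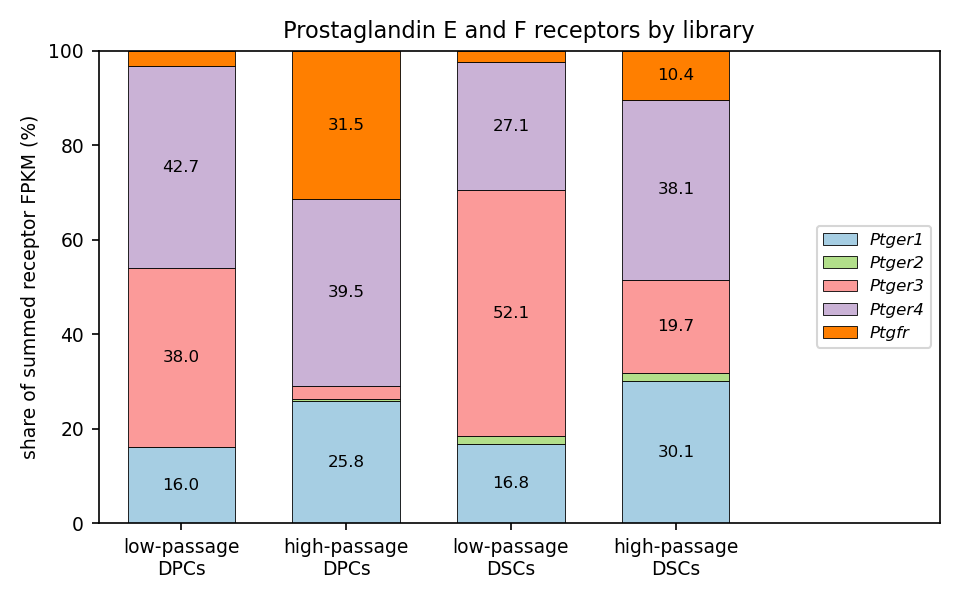
Share of each receptor in the summed FPKM of the 5 receptors (%), 1 bar per library. Between passage 3 and passage 9 the Ptger3 segment narrows and the Ptgfr segment widens in both cell types. Ptgfr widens more in DPCs (3.24% to 31.5%) than in DSCs (2.37% to 10.4%). The Ptger1 segment also widens in both cell types, and the Ptger4 segment widens in DSCs.

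Of the 10 members, 9 passed the filter of a mean of 10 counts, as did 16734 genes in all. With passage in DPCs, 2 of the 9 were called higher (Ptgs2 and Ptgfr), where 5.58% of all genes tested were, and 1 was called lower (Ptger3), where 4.36% were. In DSCs 1 was called higher (Ptgfr), where 2.67% were, and 0 lower, where 1.16% were. One member, Ptgfr, was called higher in both cell types, as were 1.27% of genes. Numbers this small are a description of the members. Over the 9 members, the median log2 change was 0.83 in DPCs and 0.40 in DSCs, beside 0.03 and 0.00 over all genes tested. The scatter of passage changes places them among all genes.

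**Figure D3:**
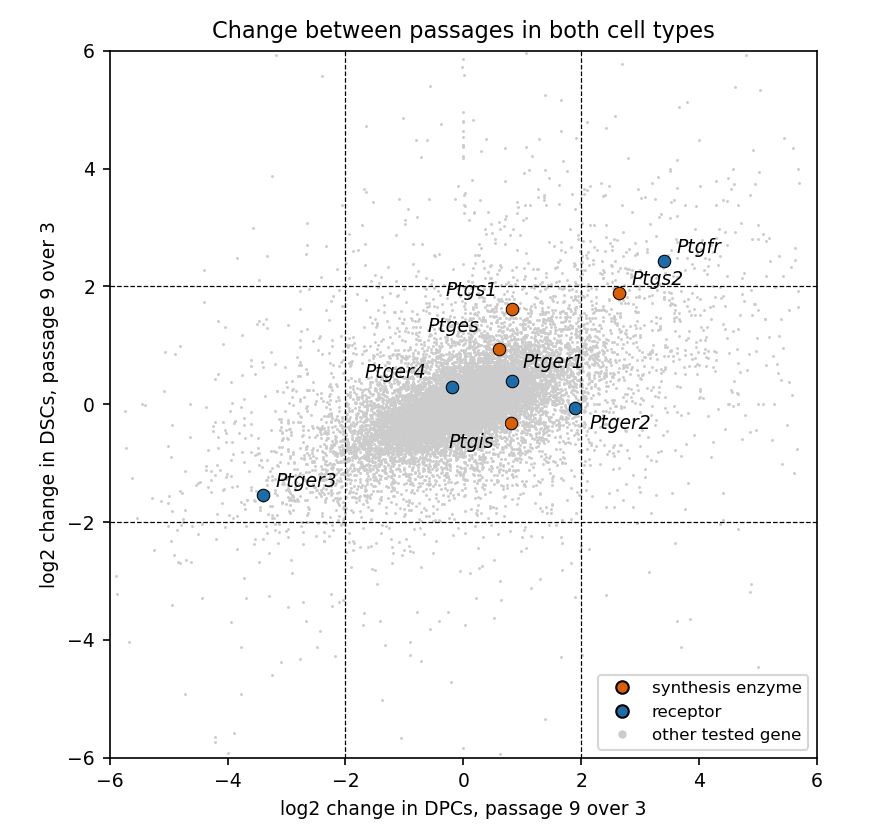
Log2 change from passage 3 to passage 9 in DPCs (horizontal) and in DSCs (vertical) for all genes tested (grey; genes beyond 6 on either axis are not drawn), with the 9 tested members named. Dashed lines mark the 4-fold threshold. Ptgfr lies past it in both cell types (3.40 and 2.43), Ptgs2 past it in DPCs (2.65), and Ptger3 past it in DPCs on the lower side (-3.40).

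Between the cell types at passage 3, 0 members were called higher in DPCs, where 1.52% of genes were, and 2 were called lower (Ptgis and Ptger2), where 2.77% were. At passage 9, 0 were called higher, where 2.50% of genes were, and 2 lower (Ptgis and Ptger3), where 3.91% were. Ptgis was thus the one member called between the cell types at both passages. The median over the 9 members was -0.33 at passage 3 and -0.02 at passage 9, beside 0.00 and -0.01 over all genes tested. Of the 36 log2 differences of tested members, 30 had a counting interval that excluded 0, and 28 if counts were halved. The share over all genes tested was not computed, and such intervals narrow as counts rise. The plot of differences with their intervals shows that counting error is small for Ptgs1, Ptgs2 and Ptges and wide for Ptger2, Ptgds and Ptgis in DPCs.

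**Figure D4:**
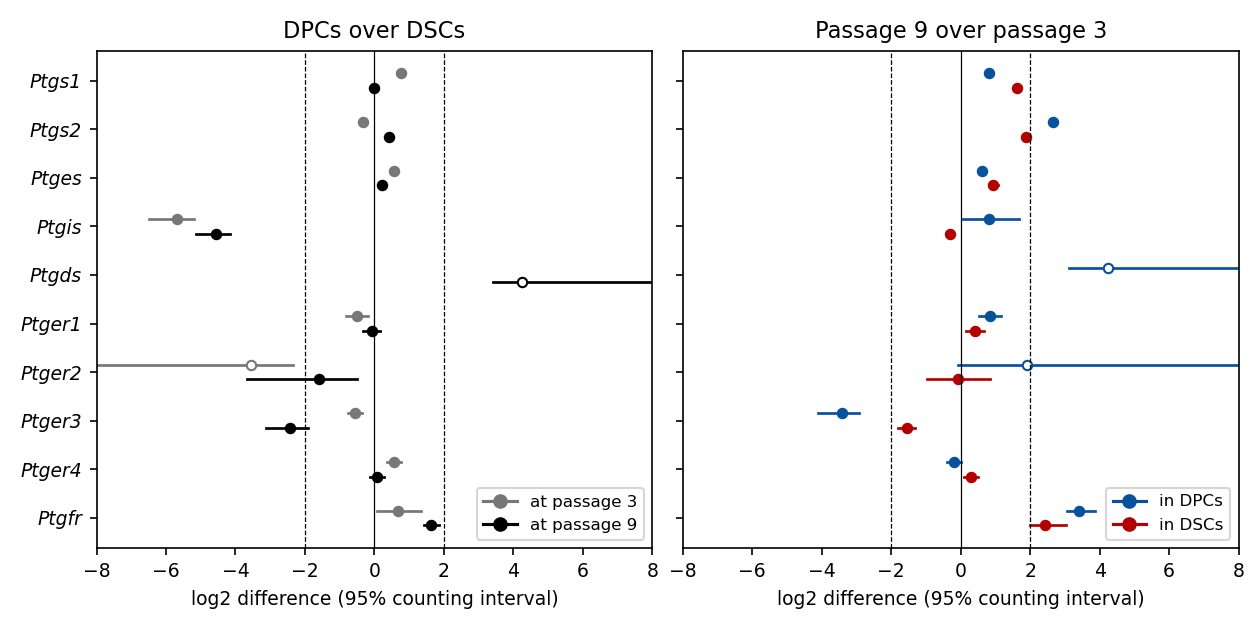
Log2 differences of the 10 members between cell types (left, at each passage) and between passages (right, in each cell type), with 95% counting intervals as bars, some narrower than the point or running past the axis. Open points have 0 counts on one side and depend on the prior count of 2. Ptgis lies at -5.69 and -4.56 on the left, and Ptgfr at 3.40 and 2.43 on the right.

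A fit over all 4 libraries, with passage and cell type as terms, has 1 residual degree of freedom, which measures how unlike the cell types respond to passage. In edgeR's quasi-likelihood test with Benjamini-Hochberg adjustment, 0 genes passed 0.05 for passage and the smallest adjusted p among members was 0.188, for Ptgs2 and Ptgfr. At an unadjusted p under 0.05 there were 5 members (Ptgs1, Ptgs2, Ptges, Ptger3 and Ptgfr), and 16.9% of all genes. DESeq2's Wald test with the same terms passed 4 members (Ptgs1, Ptgs2, Ptger3 and Ptgfr) and 5.62% of all genes. Its log2 changes were 2.27 ± 0.33 (SE) for Ptgs2, 2.97 ± 0.55 for Ptgfr and -2.49 ± 0.66 for Ptger3. For cell type, edgeR again called 0 genes. The smallest adjusted p among members was 0.0930, for Ptgis, and 2 members (Ptgis and Ptgfr) and 8.25% of genes were under an unadjusted 0.05. DESeq2 called Ptgis alone of the members, at -5.19 ± 0.48, and 2.93% of all genes. Neither fit holds replicate cultures.

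Of 51 other genes of the pathway, 33 were tested, and in DPCs 4 were called higher and 6 lower with passage, where 5.58% and 4.36% of all genes tested were. In DSCs 2 were called higher and 1 lower, where 2.67% and 1.16% were. Between the cell types at passage 3, 0 were called higher and 3 lower in DPCs, where 1.52% and 2.77% were, and at passage 9, 1 higher and 6 lower, where 2.50% and 3.91% were. Their median log2 change was -0.09 in DPCs and -0.14 in DSCs, unlike the positive medians of the members. For the release of arachidonic acid, the cytosolic phospholipase Pla2g4a had 1741, 2164, 1856 and 4714 counts in low- and high-passage DPCs and low- and high-passage DSCs. Its log2 change was 0.35 in DPCs and 1.08 in DSCs, the same direction as Ptgs1 and Ptgs2. The secreted phospholipase Pla2g2e was called lower in both cell types, with 25 and 0 counts in DPCs and 91 and 18 in DSCs. Mgll, the lipase that frees arachidonate from the endocannabinoid 2-AG, was called lower in DPCs, from 2007 to 367 counts, against 6307 and 5727 in DSCs. A further 8 phospholipase genes (Pla2g4d, Pla2g4e, Pla2g4f, Pla2g2a, Pla2g2c, Pla2g2d, Pla2g2f and Pla2g10) had at most 3 counts in every library. Pla2g4b, a cytosolic phospholipase with low counts, was called higher in DPCs with 6 and 41 counts and lower in DPCs than DSCs at passage 3. With the deposited FPKM these log2 differences were 1.43 and -1.14, so that both calls were lost.

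Among the other terminal synthases, Akr1b3 stood out. This aldose reductase, which can also make PGF2α from PGH2, had 4286 counts in DPCs at passage 3 and 92817 at passage 9, and 2625 and 6879 in DSCs at those passages. High-passage DPCs were far above the rest, with a log2 change of 4.47 in DPCs and 1.12 in DSCs, the first called. Of its 50-base stretches, 13.6% occur also in other annotated genes, so part of its count is uncertain. The prostamide/PGF2α synthase Fam213b went the other way in DPCs, from 245 to 14 counts and called lower, beside 219 and 268 in DSCs. The constitutive PGE2 synthases Ptges2 and Ptges3 changed by -0.43 and -0.28 in DPCs and -0.22 and -0.02 in DSCs. Hpgds, the haematopoietic PGD2 synthase, had at most 45 counts and the thromboxane synthase Tbxas1 at most 32.

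Most breakdown and uptake genes stayed under the fold threshold. The main exception was Hpgd, the 15-hydroxyprostaglandin dehydrogenase that inactivates PGE2 and PGF2α. It had 103 counts in DPCs at passage 3 and 9 at passage 9, and 223 and 125 in DSCs at those passages. It was called lower with passage in DPCs at -3.24 and changed by -1.09 in DSCs. Slco2a1, the prostaglandin uptake transporter, had 254 and 883 counts in DPCs and 3649 and 2034 in DSCs. Like Ptgis, it was called lower in DPCs at passage 3, at -3.79.

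The remaining prostanoid receptors ranged from undetected to above the members. Ptgir, the prostacyclin receptor, had 337 and 52 counts in low- and high-passage DPCs and 107 and 87 in DSCs, and was called lower in DPCs at -2.62. The DPCs at passage 3 thus had little of the prostacyclin synthase and the highest count of its receptor. The PGD2 receptor Ptgdr was at 0 in every library, and Ptgdr2 had 6 counts in low-passage DSCs and 0 elsewhere. The thromboxane receptor Tbxa2r had 804 and 326 counts in DPCs and 625 and 498 in DSCs. At 11.3 and 4.59 FPKM in DPCs and 8.01 and 5.17 in DSCs it stood above each of the 5 member receptors in every library. It changed by -1.26 in DPCs and -0.59 in DSCs on the log2 scale, and was not called. Of the nuclear receptors that bind fatty acid products, Pparg had 92 and 68 counts in DPCs and 421 and 334 in DSCs, and was called lower in DPCs at passage 3.

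The leukotriene branch uses the same substrate through 5-lipoxygenase, and its list here holds other lipoxygenases too. Alox5ap, the protein that presents arachidonic acid to 5-lipoxygenase, was called lower in DPCs, from 78 to 14 counts, with 69 and 63 in DSCs. The leukotriene receptor Cysltr1 had 0 and 6 counts in DPCs and 4 and 86 in DSCs and was called higher in both. Its DPC difference is bounded only at 2.05-fold or more, under the threshold, so that this call rests on the prior count, and the gene passed the filter through high-passage DSCs. Cysltr2 was at 0 in every library. Alox5 and the leukotriene hydrolase Lta4h changed by -0.33 and -0.02 in DPCs and -0.86 and -0.19 in DSCs. Of the listed lipoxygenases other than 5-lipoxygenase, Alox12 was called higher in DSCs, from 7 to 46 counts, and Aloxe3 in DPCs, from 31 to 203. The plot of the wider pathway gives all 33 genes.

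**Figure D5:**
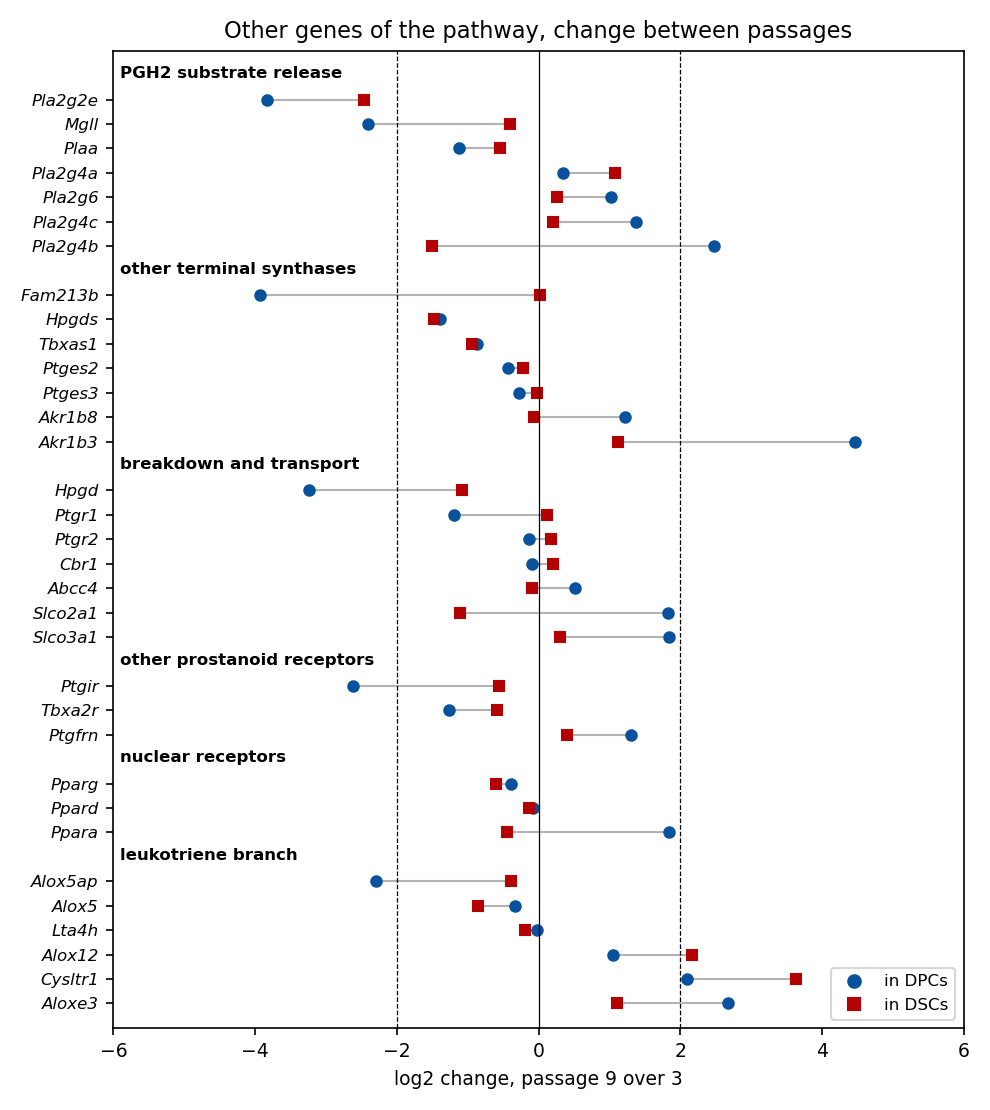
Log2 change from passage 3 to passage 9 of the 33 other pathway genes that were tested, grouped by role, in DPCs (blue circles) and DSCs (red squares) with 1 library per group. Dashed lines mark the 4-fold threshold. Akr1b3 lies highest in DPCs at 4.47, and Fam213b, Pla2g2e and Hpgd lie lowest in DPCs at -3.93, -3.83 and -3.24. Pla2g2e has 0 counts in high-passage DPCs, so its place depends on the prior count. Its difference is bounded only at 8.13-fold or more.

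Genes of other cells and of induction moved as follows. Macrophages express Ptgs1 strongly, and the summed CPM of 6 macrophage markers was 114 and 63.8 in low- and high-passage DPCs and 165 and 92.5 in DSCs. All 6 were lower at passage 9 in both cell types. Of them 2 were called lower in DPCs and 1 in DSCs, where 4.36% and 1.16% of all genes tested were. Most of the sum was Lyz2, at 92.3 and 54.7 CPM in low- and high-passage DPCs and 131 and 78.3 in DSCs. The part of macrophages in the levels of Ptgs1 was not tested. Of 8 tested inducers and regulators of Ptgs2, 1 (Fos) was called higher with passage in DPCs and 1 (Il6) lower. Of all genes tested, 5.58% and 4.36% were. In DSCs 0 were called either way, where 2.67% and 1.16% of all genes were. The median log2 change of the 8 was 0.17 in DPCs and 0.64 in DSCs, beside 0.03 and 0.00 over all genes tested. Tnf had 15, 10, 9 and 6 counts in low- and high-passage DPCs and low- and high-passage DSCs. Il1a was at 0 in all libraries, Il1b had 7 counts in high-passage DPCs and 0 elsewhere, and Il6 had 51, 0, 53 and 129 counts in low- and high-passage DPCs and low- and high-passage DSCs. Cebpb and Cebpd, which encode C/EBP factors, changed by 0.12 and 0.11 in DPCs and by 0.61 and 1.29 in DSCs. The immediate early gene Fos had 76, 303, 575 and 1964 counts in that order, higher at passage 9 as Ptgs2 was, but higher also in DSCs than in DPCs at both passages. The part of any of these in the levels of Ptgs2 was not tested.

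The genes whose profiles lay nearest to those of the 3 members with the widest range, among members with a mean of at least 100 counts, were sought among 12191 other genes above that mean. Distance was Euclidean on centred log2 CPM over 4 libraries, a short profile that many genes can share. Nearest to Ptgis were Chdh (0.16), Comp (0.46) and Piwil2 (0.64), against a median distance of 5.20. Comp, a cartilage matrix protein, had 1.79 and 3.23 CPM in DPCs and 80.7 and 101 in DSCs. Nearest to Ptgfr were Frat2 (0.27), Slc25a23 (0.32) and Svip (0.38), with a median of 3.22. Nearest to Ptger3 were Slc7a11 (0.20), Cth (0.24) and Mt2 (0.30), with a median of 3.06. Slc7a11, the cystine transporter, had 13.4 and 1.00 CPM in low- and high-passage DPCs and 19.3 and 6.23 in DSCs, in the same order as Ptger3.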

How the data were processed

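RNA was sequenced by the authors as 4 paired-end poly-A libraries. The labels name a TruSeq kit and the methods a NEBNext kit. The authors deposited 1 table of raw gene counts and, for each library, FPKM values that they normalized for transcript length and depth. The submitters' processing notes name Bowtie 0.12.2 and the builds mm8 and mm9, although all 10 member positions equal those of GENCODE M21 on GRCm38. The counting program and its use of strand are not given in the sources used here.

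Counts were scaled by TMM in edgeR 4.0.16 (R 4.3.3, limma 3.58.1, DESeq2 1.42.0). Log2 CPM used a prior count of 2, and FPKM a pseudocount of 0.1. A gene was tested if its raw counts averaged 10 or more over the libraries. Intervals of single differences are exact Clopper-Pearson 95% intervals, from how the reads of 2 libraries divide between them. Intervals of a difference between passage changes are Poisson 95% intervals (delta method) over all 4 libraries. They were given where all 4 counts were at least 10. A count of 0 was read as up to 3 counts, or 6 if both mates were counted. Total counts per library are given in the report and set the precision. The fold rule was tried on simulated counts without biological spread. The additive fit was tried on simulated counts with a smaller spread (dispersion) than the 0.106 fitted to the data. These runs therefore do not show how either step performs at the spread of the data. DESeq2 ran without independent filtering.

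The members and gene lists were chosen with earlier results of these data known. All members are named. Wider-list genes are named where called, where alone in their role, or at most at 3 counts in every library, beside Pla2g4a, Ptges2, Ptges3, Alox5, Ptgs2os, Ptgs2os2 and the marker and inducer genes, which were added after their values were seen. Alternatives were other scalings, prior counts, filters, FPKM and DESeq2. One result that bears on Ptger1 is not reported here.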

Additional observations from a re-analysis of the deposited data

Results flagged for a closer look

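For 3 members the change with passage had opposite signs in DPCs and DSCs. The difference was not tested, since each group held 1 library. The change of Ptgis in DPCs exceeded that in DSCs by 1.13 on the log2 scale (0.81 against -0.32), on 22 and 39 counts in DPCs. For Ptger2 the gap was 1.96 (1.90 against -0.07), where the DPC value rests on 5 counts against 0. For Ptger4 it was -0.48 (-0.18 against 0.30).

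For the cyclooxygenases the difference between DPCs and DSCs moved between passages, which was also not tested. Ptgs1 was higher in DPCs at passage 3 (0.78) and within counting error at passage 9 (-0.02), a shift of -0.79. The sign at passage 9 is not settled, since it was positive with total counts and FPKM. Ptgs2 was lower in DPCs at passage 3 (-0.33) and higher at passage 9 (0.42), a shift of 0.76.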

How the results depend on the processing

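The number of members called in the DSC passage comparison was 1, and 0 with the deposited FPKM. In DPCs against DSCs at passage 3 it was 2, and 1 with a prior count of 10, with FPKM and with a mean count of at least 100, the lost member being Ptger2 each time. The counts of members called in the other comparisons stayed within 1.5 times of the main value under all alternatives. With edgeR the additive fit called 0 genes for either term, against 940 and 490 with DESeq2, and 13 for cell type with a mean count of at least 100. Of 40 member values, the sign changed for 2 with total counts, for 1 with FPKM and for 0 with the other scalings and prior counts. For the differences of passage changes, the alternatives were added after seeing the data. All 8 members whose counts allowed an interval had one that excluded 0, and 7 did with halved counts. The share over all genes was not computed here either. Background calls moved by over 1.5 times in some settings: with a prior count of 10, genes called higher and lower were 635 and 474 with passage in DPCs (main 933 and 730), 235 and 104 in DSCs (446 and 194), 140 and 260 at passage 3 (255 and 464) and 292 and 420 at passage 9 (419 and 655). With FPKM they were 649 and 531, 254 and 96, 163 and 229, and 337 and 409. With a mean count of at least 100 they were 378 and 377, 148 and 59, 103 and 198, and 174 and 292, and with no filter 1580 and 1043, 779 and 421, 556 and 767, and 834 and 924. FPKM shifted the median of all genes at passage 9 by 0.10.

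Each group held 1 library, so there is no replicate block and no fit without a library. The additive fit, with cell type as a term, is the one form of pairing here. No value here has a replicate error. Low counts limit the folds of Ptger2, Ptgds and Ptgis in DPCs most.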
